A study of Mus musculus with 9 samples.

Results

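Hspb1, Hspb7, Hspb8, Cryab, Bag3, Flnc, Ankrd1, Ankrd2, Xirp1 and Csrp3 are chaperone and stretch-response genes of muscle, and their transcripts were measured in mouse back skin after tape stripping, with and without a cream that held nano-sized graphene oxide (NGO). They are 10 of the 23282 entries in each count table, and each symbol was found once. The genes were chosen by name, with earlier results of these libraries in view, among them the higher muscle signal after stripping and its lower level with NGO. All animals were wild-type C57BL/6 (B6) mice, whose age the labels do not give, and skin was taken 24 h after treatment. The 9 libraries formed 3 groups of 3: unstripped skin, tape-stripped skin with control cream (stripped control skin), and tape-stripped skin with NGO cream at 50 µg in 100 µL per mouse (NGO-treated skin). Tape stripping peels off the outer layers of the epidermis, and graphene oxide is a sheet-like carbon material. The labels count the unstripped samples among those with control cream, while the protocol puts cream on stripped areas alone, so whether cream touched that skin is unclear. The labels number the replicates 1 to 3 without saying that each was its own animal. A p-value here therefore reflects the spread among these libraries, which may be technical.

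The proteins of these genes meet at the Z-disc, the plate that anchors the actin filaments and titin springs of a striated muscle fibre. Hspb1, Hspb7, Hspb8 and Cryab encode small heat-shock proteins, which hold damaged proteins without using ATP, and BAG3 links HSPB8 and the HSP70 chaperone to autophagy, by which filamin C (Flnc), an actin crosslinker unfolded by tension, is removed and replaced. Xirp1 encodes Xin, an actin-binding repeat protein that binds filamin C. Ankrd1 (CARP) and Ankrd2 encode ankyrin-repeat proteins that bind the titin spring and can enter the nucleus, and Csrp3 encodes the muscle LIM protein of the Z-disc. In mouse skin such muscle fibres form the panniculus carnosus under the dermis, while Hspb1 is also abundant in the epidermis.

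Transcripts of all 10 genes were more abundant in stripped control than in unstripped skin in every library, as were those of 13.8% of all genes tested. Fitted differences ran from 2.60 for Hspb1 to 10.61 for Xirp1 on the log2 scale. In NGO-treated skin all 10 lay below stripped control skin in every library, as did 8.92% of all genes tested, and 8 of the 10 were called lower (an adjusted p under 0.05 over all genes), where 1.18% of all genes were. Ankrd1 showed the largest of these differences, 22.8-fold. Set against 3 other muscle genes of the same library (Actn3, Casq1 and Ryr1), the 10 genes were still lower with NGO in each library. So were 1.09% of all genes in that comparison and 7 of 18 skeletal muscle markers. Of the 10 genes, Ankrd1 alone was called on this scale, at 9.10-fold lower.

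The sequences before the start sites of Hspb1 and Ankrd1 are shown because these genes were called lower with NGO in all 18 alternatives of the fit scaled to the whole library, and because they carry both motifs that were searched. The motifs were GAANNTTC, the core of the element bound by heat-shock factor, which reads the same on both strands, and CATTCC on either strand (GGAATG on the other), the core bound by TEAD factors. Both are RefSeq sequences of build GRCm38.p6, printed 5′ to 3′ on the strand of the gene up to the base before its RefSeq start site, with the motifs in capitals. The first runs over chr5:135887769-135887918 on the plus strand and the second over chr19:36119845-36120064 on the minus strand. GENCODE M21 begins Ankrd1 further upstream, at chr19:36120099, so the second stretch lies inside the gene as placed there. Distances below are from the RefSeq start sites.
Hspb1: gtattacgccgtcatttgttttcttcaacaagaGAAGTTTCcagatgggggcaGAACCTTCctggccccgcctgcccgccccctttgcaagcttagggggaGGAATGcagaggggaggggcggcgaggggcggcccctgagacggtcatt
Ankrd1: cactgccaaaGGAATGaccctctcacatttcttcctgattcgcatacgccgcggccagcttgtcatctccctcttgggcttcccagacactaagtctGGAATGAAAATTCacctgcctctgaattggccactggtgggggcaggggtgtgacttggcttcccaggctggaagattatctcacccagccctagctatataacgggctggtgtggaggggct
In Hspb1 the GAANNTTC matches began 117 and 97 bases before the start and the CATTCC match 49 bases before it. In Ankrd1 the CATTCC matches began 210 and 123 bases before the start and the GAANNTTC match 118 bases before it, so that the last CATTCC match and the GAANNTTC match shared 1 base. Promoter windows of 300 bases, which also hold bases after the start site, were used for 8 of the 10 genes, not for Cryab and Xirp1. Some genes had more than 1 start site, which gave 10 windows. GAANNTTC was present in 5 of these 10 windows (1 each of Hspb1, Hspb8, Bag3, Ankrd1 and Csrp3) and in 7.86% of all 32851 windows. CATTCC was present in 5 of the 10, in windows of 4 genes (Hspb1, Hspb7, Flnc and Ankrd1), and in 14.7% of all windows. The windows of Flnc overlap, so the same CATTCC site was counted for each of them. The CATTCC match of Hspb7 and the GAANNTTC matches of Hspb8 and Bag3 lay after the start site, by 3, 2 and 42 bases. These are matches of letters and describe no binding.

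The libraries held 2019739 to 6303322 counts. The 18 skeletal muscle markers, all of them detected in each group, took 0.0186 to 0.182% of the counts of unstripped libraries, 4.95 to 11.02% of those of stripped control libraries and 2.54 to 5.24% of those of NGO-treated ones. Basal keratinocyte markers took 2.60 to 3.23%, 0.116 to 0.209% and 1.31 to 2.03%, and smooth muscle and pericyte markers 0.0108 to 0.0183%, 0.0139 to 0.0197% and 0.0267 to 0.0430%, with Actg2 at 0 in unstripped and Cnn1 and Actg2 at 0 in stripped control skin. Neutrophil markers took 0.00065 to 0.000966%, 0.257 to 0.774% and 0.0488 to 0.166%, so that their sum was high and low in the same groups as the 10 genes. Csf3r, 1 of the 4 neutrophil markers, did not follow that sum, at 6 to 10, 0 to 18 and 4 to 23 counts per library. Endothelial markers took 0.00391 to 0.00578%, 0.0266 to 0.0573% and 0.0206 to 0.0321%, and suprabasal keratinocyte markers 0.683 to 1.52%, 0.0188 to 0.0398% and 0.102 to 0.146%. These marker shares moved with the group, and their part in the results below was not tested. In bulk tissue fewer cells of a type and less RNA per cell cannot be told apart. The single ribosomal RNA entry Rn45s took 13.2 to 16.0%, 22.1 to 25.1% and 9.35 to 21.0% of counts. The 10 genes together took 0.104 to 0.154% of counts in unstripped skin, 2.10 to 4.002% in stripped control skin and 0.401 to 0.835% in NGO-treated skin. Hspb1 made up 74.3 to 81.6% of that sum in unstripped skin, and Cryab 38.5 to 45.4% of it after stripping and 42.2 to 49.2% with NGO.

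Values below are edgeR's scaled counts (CPM), in the order of replicates 1, 2 and 3, and differences are log2 fold changes from the count model with their standard error (SE). Libraries were made from the 3′ ends of transcripts, so a count follows the number of transcripts and not their length, and levels are compared between groups and not between genes. Coordinates are those of mm10 in GENCODE M21. Since the course of muscle genes over the 3 groups was known when the genes were chosen, the differences of the 10 genes in all 3 comparisons are descriptions and are given without a p-value. A gene is said to be called where the count model fitted to all genes gave it an adjusted p under 0.05.

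Hspb1 (chr5:135887919-135889563, plus strand) encodes HSP27, a chaperone that also guards actin filaments. Its level was 1203, 708 and 701 CPM in unstripped skin, 4148, 4456 and 7258 CPM in stripped control skin, and 1259.9, 616 and 1286 CPM in NGO-treated skin. The stripped control libraries lay above all others, while the unstripped and NGO-treated libraries overlapped. The difference was 2.60 ± 0.38 (SE) between stripped control and unstripped skin. With NGO the difference from stripped control skin was -2.33 ± 0.38, which was called whichever library was left out. Between NGO-treated and unstripped skin the difference was 0.28 ± 0.36, which was not called.

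Hspb8 (chr5:116408491-116422864, minus strand) encodes the small heat-shock protein that pairs with BAG3. Its CPM values were 158, 131 and 167 in unstripped skin, 813, 1438 and 2305 in stripped control skin, and 389, 135 and 656 in NGO-treated skin. Replicate 2 with NGO lay within the unstripped range, and all NGO-treated libraries lay below all stripped control libraries. The difference of stripped control from unstripped skin was 3.32 ± 0.53 (SE), and that of NGO-treated from stripped control skin was -1.95 ± 0.50. The latter was called, and stayed so in 2 of the 9 fits with a library left out, those without stripped control replicate 1 or NGO-treated replicate 3.

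Bag3 (chr7:128523616-128546981, plus strand) encodes the co-chaperone that carries HSP70 and HSPB8 clients to autophagy. It was at 23.6, 23.5 and 29.3 CPM in unstripped skin, at 215, 279.6 and 447 CPM in stripped control skin, and at 58.9, 72.3 and 92.2 CPM in NGO-treated skin. The 3 groups did not overlap, and NGO-treated skin lay between the others. The difference was 3.62 ± 0.39 (SE) after stripping, -2.08 ± 0.36 between NGO-treated and stripped control skin (called, but not without NGO-treated replicate 1), and 1.55 ± 0.36 between NGO-treated and unstripped skin.

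Cryab (chr9:50751325-50756636, plus strand) encodes alpha-B-crystallin, a chaperone of desmin and actin. It was at 50.3, 6.45 and 17.6 CPM in unstripped skin, at 9928, 14421 and 22421 CPM in stripped control skin, and at 2785, 1781 and 3681 CPM in NGO-treated skin. The 3 groups were apart, with the means at 24.8 ± 22.8, 15590.1 ± 6328 and 2749 ± 951 CPM (SD, n = 3). The fitted difference was 9.30 ± 0.79 (SE) after stripping and -2.50 ± 0.58 between NGO-treated and stripped control skin. The latter was called, and was not without stripped control replicate 3 or any 1 NGO-treated replicate. Its exons overlap those of Hspb2 on the other strand, and the sources used here do not say whether counting used strand, so reads of the neighbours may be mixed.

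Hspb7 (chr4:141420779-141425311, plus strand) encodes a small heat-shock protein of heart and skeletal muscle that binds filamin C. It was at 2.39, 0 and 1.17 CPM in unstripped skin, at 658, 2172 and 2437 CPM in stripped control skin, and at 248, 162 and 606 CPM in NGO-treated skin. Replicate 3 with NGO came close to replicate 1 of stripped control skin without reaching it. The difference between NGO-treated and stripped control skin was -2.37 ± 0.63 (SE), a call that was lost when any of 6 libraries was left out (replicate 1 or 3 of unstripped, 2 or 3 of stripped control and 1 or 2 of NGO-treated skin). The difference after stripping, 10.53 ± 0.95, rests on 11 counts over the unstripped libraries.

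Flnc (chr6:29433256-29461883, plus strand), the filamin C gene, was at 13.7, 4.40 and 2.35 CPM in unstripped skin, at 1633, 3254 and 3378 CPM in stripped control skin, and at 271, 317 and 526 CPM in NGO-treated skin. The groups did not overlap. The differences were 8.67 ± 0.69 (SE) after stripping and -2.89 ± 0.52 between NGO-treated and stripped control skin (called, but not without NGO-treated replicate 1 or 2). Xirp1 (chr9:120013755-120023598, minus strand), the gene of the filamin C partner Xin, was at 0, 0 and 1.76 CPM in unstripped skin, at 374, 1254 and 1389 CPM in stripped control skin, and at 71.8, 23.7 and 219 CPM in NGO-treated skin. Its NGO-treated libraries spread widely, with an SD of 102 CPM on a mean of 105 CPM, and lay below all stripped control libraries. The difference was -3.26 ± 0.80 (SE) between NGO-treated and stripped control skin, a call that was lost without replicate 2 or 3 of stripped control skin or 1 or 2 of NGO-treated skin. That after stripping was 10.61 ± 1.19, on 6 counts in unstripped skin, all of them in replicate 3.

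Ankrd1 (chr19:36111961-36120099, minus strand) encodes the cardiac ankyrin repeat protein, which is induced in stretched and injured muscle and is also a textbook target of YAP and TEAD. It was at 1.71, 16.7 and 16.4 CPM in unstripped skin, at 1752, 4596 and 5890.2 CPM in stripped control skin, and at 156, 137 and 242 CPM in NGO-treated skin. The lowest stripped control library was above the highest NGO-treated library by several times, and the NGO-treated libraries above the unstripped ones likewise. The difference was 8.44 ± 0.80 (SE) after stripping. Between NGO-treated and stripped control skin it was -4.51 ± 0.66, or 22.8-fold lower, and was called whichever library was left out. Between NGO-treated and unstripped skin it was 3.93 ± 0.66.

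Ankrd2 (chr19:42036000-42045110, plus strand), a relative of Ankrd1 known from stretched skeletal muscle, was at 4.11, 0 and 0 CPM in unstripped skin, at 459.97, 1605 and 1930 CPM in stripped control skin, and at 185, 106 and 450.3 CPM in NGO-treated skin. The highest NGO-treated library was just under the lowest stripped control library. The difference of -2.43 ± 0.79 (SE) between these groups was not called. Csrp3 (chr7:48830398-48848033, minus strand) was at 16.8, 0 and 7.92 CPM in unstripped skin, at 1870.2, 3979 and 4389 CPM in stripped control skin, and at 449.6, 269 and 954 CPM in NGO-treated skin. Here too the groups did not overlap and the difference of -2.61 ± 0.80 (SE) was not called. Ankrd2 was called without stripped control replicate 1, and Csrp3 without unstripped replicate 2. After stripping the differences were 9.98 ± 1.16 for Ankrd2, on 12 counts in unstripped skin, and 8.71 ± 1.07 for Csrp3.

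**Figure D1:**
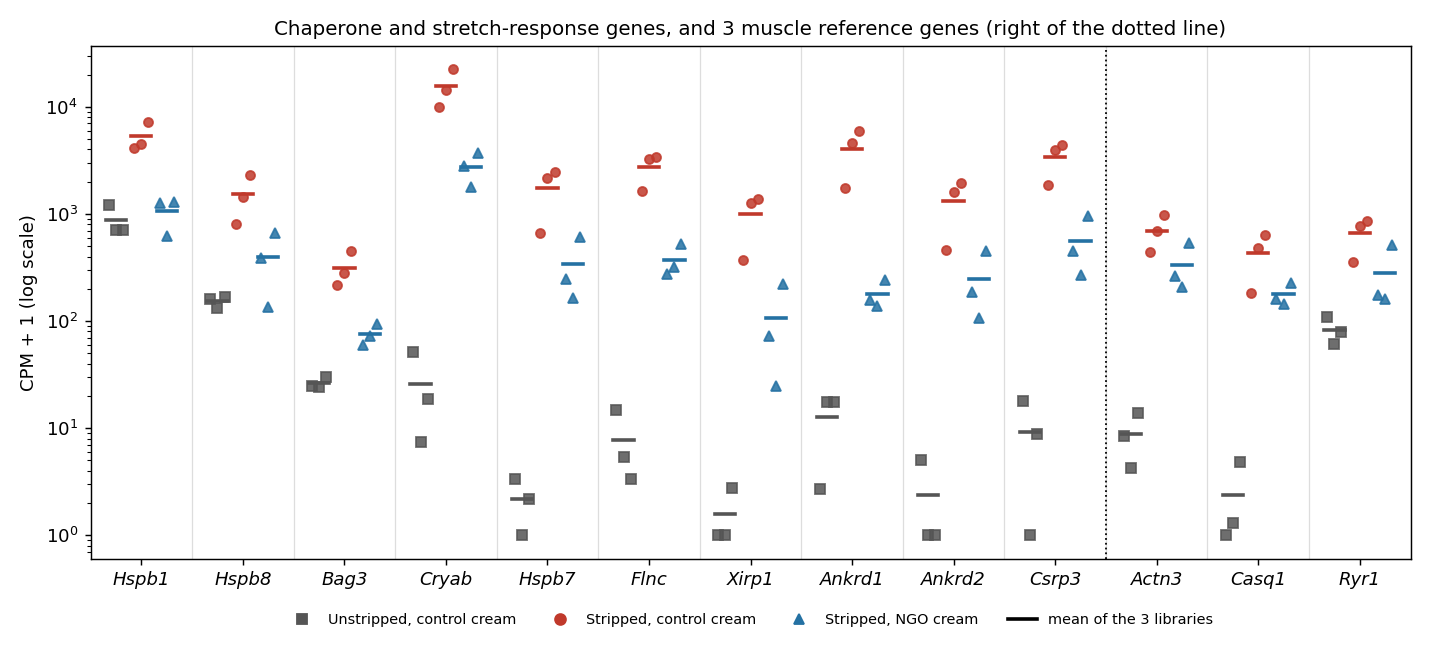
Level of each chaperone and stretch-response gene and of Actn3, Casq1 and Ryr1 in the 9 libraries, as CPM + 1 on a log axis, with a point per library and a bar at the mean of 3 libraries. For all 10 chaperone and stretch-response genes the NGO-treated libraries lie below the stripped control libraries, while for the 3 other muscle genes these groups overlap.

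After stripping, all 10 genes were called higher than in unstripped skin, where 5.97% of the 13740 genes tested were called higher and 7.64% lower. In all 10 the 3 stripped control libraries lay above the 3 unstripped ones, as in 13.8% of all genes. All 10 passed the filter on low counts, and those near 0 in unstripped skin passed it through their level in stripped skin, so these counts describe the genes as chosen. The median difference of the 10 was 8.69, beside -0.20 over all genes tested. Hspb1, Hspb8 and Bag3 had the 3 smallest differences of the 10.

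Between NGO-treated and stripped control skin 8 of the 10 genes were called lower and none higher, while 1.18% of all genes tested were called lower and 3.87% higher. The NGO-treated libraries lay below the stripped control libraries in all 10, against 8.92% of all genes. The median difference was -2.47, beside 0.07 over all genes. Actn3, which crosslinks actin in fast fibres, Casq1, which stores calcium, and Ryr1, which releases it, differed by -1.06 ± 0.47, -1.29 ± 0.63 and -1.24 ± 0.47 (SE), with overlapping groups and no call. The comparison uses the same stripped control libraries as the one before, so the 2 sets of differences are not independent of each other or of the choice of the genes. Of the 10, the number called lower was 2 without NGO-treated replicate 1 and 3 without NGO-treated replicate 2. It was 4 without stripped control replicate 3 and 5 without stripped control replicate 2. Over all genes, 29 of 14905, 52 of 14613, 125 of 14654 and 119 of 14639 were called lower in these fits, beside 162 of 13740. Calls were thus fewer over all genes too. Hspb1 and Ankrd1 were called whichever library was left out.

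Compared with unstripped skin, NGO-treated skin had 8 of the 10 genes called higher, where 2.06% of all genes were called higher and 0.451% lower. The groups lay apart in 8 of the 10, as in 11.9% of all genes. Hspb1 and Hspb8 were the exceptions, with differences of 0.28 ± 0.36 and 1.37 ± 0.49 (SE). Differences of the others ran from 1.55 for Bag3 to 8.16 for Hspb7. That for Bag3 was no longer called in 7 of the 9 fits with a library left out.

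Replicate 1 was the lowest stripped control library for 10 of 10 genes and replicate 3 the highest for 10 of 10. Among NGO-treated libraries replicate 3 was the highest for 10 of 10, and replicate 2 was the lowest for 8 of 10, with replicate 1 lowest for Bag3 and Flnc. The other muscle genes followed the same order in stripped control skin: Actn3 was at 438, 685 and 973 CPM, Casq1 at 181, 478 and 639.5 CPM, and Ryr1 at 358, 776 and 867 CPM. With NGO, Actn3 was at 264, 209 and 529.7 CPM, Casq1 at 161, 144 and 224 CPM, and Ryr1 at 173, 158 and 516 CPM. The genes thus differed between replicates along with the muscle signal of the library, and the next values set each gene against that signal.

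For each library the counts of a gene were divided by the summed counts of Actn3, Casq1 and Ryr1. Exons of Casq1 (with Gm17224) and Ryr1 (with Gm26604 and Gm44408) overlap those of genes on the other strand. The limit given for Cryab thus holds for these 2 reference genes. After the division, scatter between stripped control replicates was smaller for 10 of 10 genes, with a median coefficient of variation of 18.2% in place of 45.0%. Between NGO-treated replicates it was smaller for 8 of 10, at 25.1% in place of 50.1%. In stripped control and NGO-treated skin, Cryab gave 10.2, 7.43 and 9.04 against 4.65, 3.48 and 2.90 counts per reference count, and Ankrd1 gave 1.79, 2.37 and 2.38 against 0.261, 0.267 and 0.191. Ankrd1 thus had a 3-library mean of 2.18 ± 0.334 after stripping and of 0.240 ± 0.0424 with NGO (SD, n = 3). NGO-treated replicates 1 and 3 lay inside the unstripped range of 0.0149 to 0.261. Flnc gave 1.67, 1.68 and 1.36 against 0.453, 0.620 and 0.414 counts per reference count. Csrp3 gave 1.91, 2.05 and 1.77 against 0.751, 0.527 and 0.751. For both genes the lowest stripped control library was above the highest NGO-treated library by more than the range within either group.

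Hspb1 gave 4.25, 2.30 and 2.93 counts per reference count in stripped control skin and 2.10, 1.21 and 1.01 in NGO-treated skin, a narrow gap between the groups. Xirp1 gave 0.382, 0.646 and 0.560 against 0.120, 0.0464 and 0.173. Across Hspb7, Hspb8, Bag3 and Ankrd2, the group means of this ratio ran from 0.182 to 0.925 after stripping and from 0.104 to 0.476 with NGO. The gap was narrowest for Bag3, at 0.144 in the lowest stripped control and 0.141 in the highest NGO-treated library. In all 10 genes the NGO-treated ratios lay below all stripped control ratios, which held for 1.09% of the 12411 genes in this comparison. It also held for 7 of the 18 skeletal muscle markers (Acta1, Ckm, Tnni2, Mb, Eno3, Pygm and Klhl41). Of the other markers 1 was apart and higher (Tmod4) and 10 overlapped. The median log2 difference of the ratio over the 10 chaperone and stretch-response genes was -1.27. With Ryr1 alone or the 18 skeletal muscle markers as the reference, Hspb1, Hspb8 and Bag3 overlapped between the groups and the other 7 did not.

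**Figure D2:**
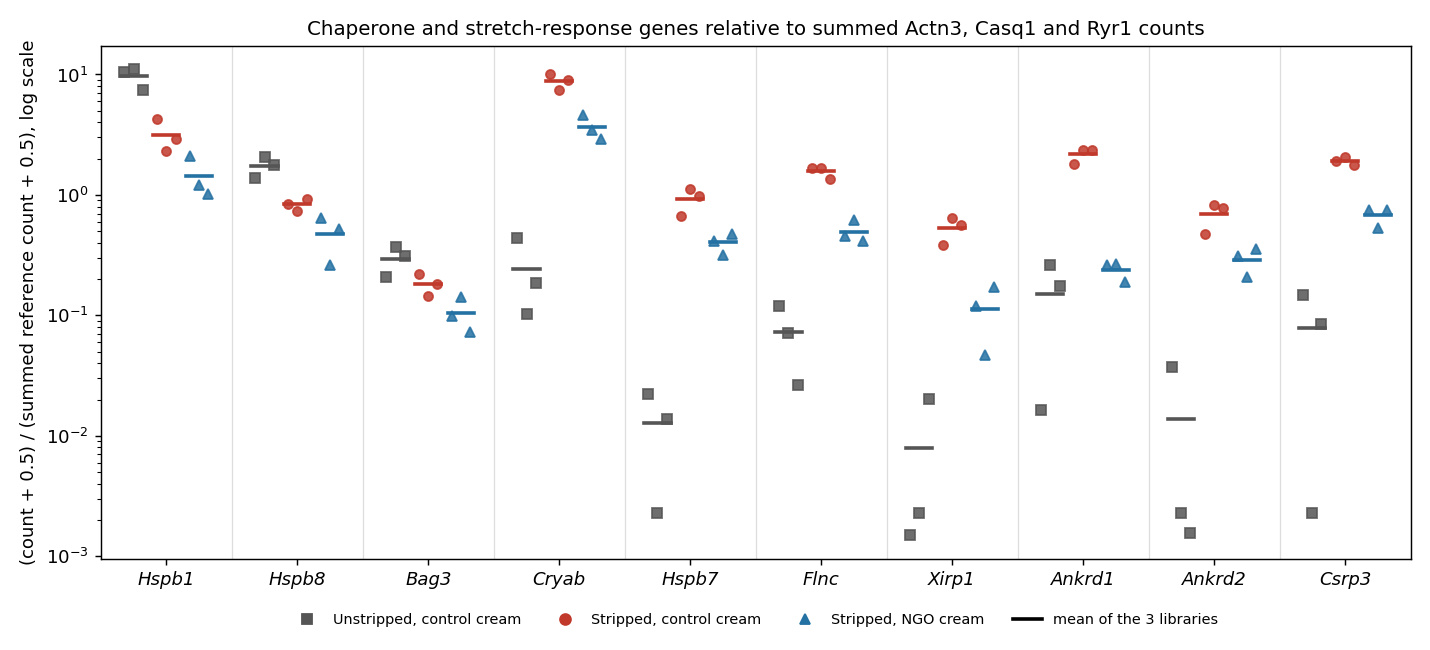
Count of each gene per summed count of Actn3, Casq1 and Ryr1 in the same library, with 0.5 added to both so that counts of 0 can be drawn, on a log axis, with a point per library and a bar at the mean of 3 libraries. NGO-treated libraries lie below stripped control libraries for all 10 genes, with the widest gap at Ankrd1 (mean 2.18 against 0.240).

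A count model of all genes in the 6 stripped libraries, with each library scaled to its summed Actn3, Casq1 and Ryr1 counts, called 1 of the 10 genes. Ankrd1 differed by -3.19 ± 0.51 on the log2 scale (SE), or 9.10-fold lower with NGO. In this fit 0.0242% of the 12411 genes were called lower, which is 3 genes with Ankrd1 among them, and 5.41% higher. The median over all genes was 1.28 on this scale, which holds the sum of the reference genes level. The other 9 genes had differences from -0.80 to -2.23, all below 0, among them Xirp1 at -2.23 ± 0.64, Flnc at -1.66 ± 0.49, Csrp3 at -1.50 ± 0.47 and Cryab at -1.27 ± 0.39 (SE). Hspb8 and Bag3 were at -0.81 ± 0.54 and -0.80 ± 0.63. The median of the 10 was -1.26, beside -0.18 for fast fibre genes, -0.41 for Z-disc genes and -0.45 for skeletal muscle markers. Ankrd1 was called in all 13 alternatives of this fit, and Hspb1 in 1 of them. With Actn3 alone as the reference 5 of the 10 were called, and with Actn3 and Casq1, a choice made after the data were seen, 4. Without stripped control replicate 1 the number was 4, and without NGO-treated replicate 3 it was 3. With the replicate number as a block it was 6, though whether the numbers pair the samples is not known. The number called over all genes was not counted in these alternatives, so these counts stand without a share of all genes.

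**Figure D3:**
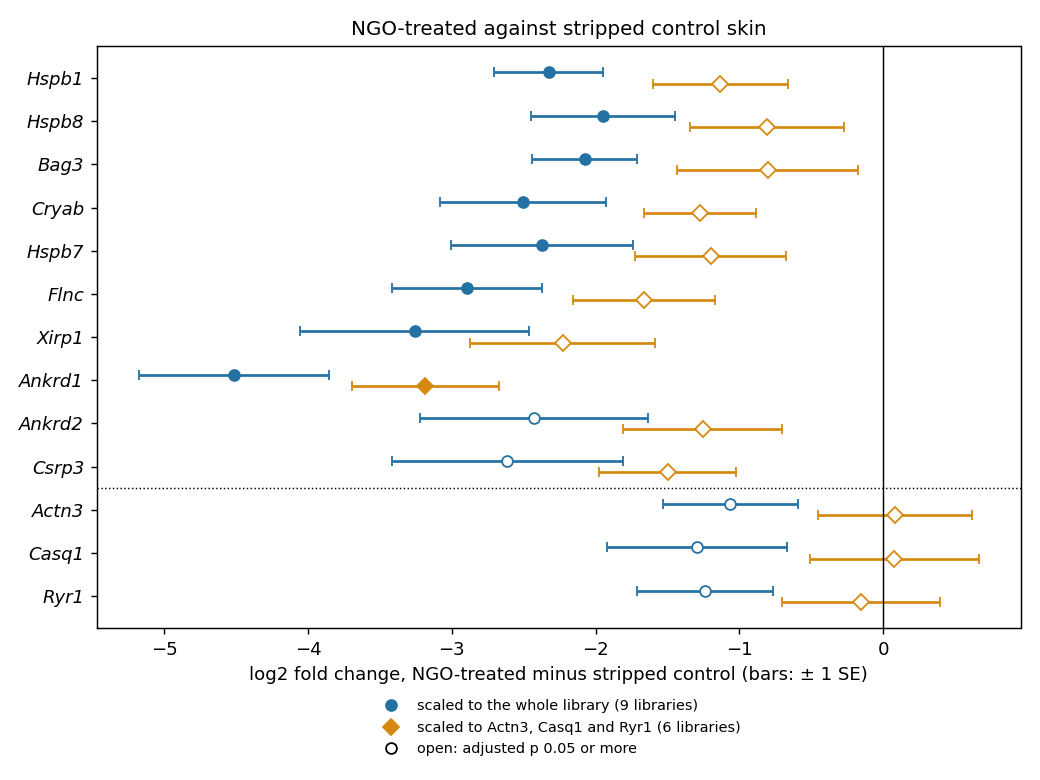
Log2 fold change of each gene between NGO-treated and stripped control skin, scaled to the whole library (circles) or to Actn3, Casq1 and Ryr1 (diamonds), with bars of 1 SE. Filled points were called at an adjusted p under 0.05: 8 genes on the first scale and Ankrd1 alone on the second.

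Against unstripped skin the ratio depends on the reference, because Ryr1 made up 82.4 to 94.5% of the reference counts there, 35.0 to 40.0% after stripping and 28.9 to 40.6% with NGO. In unstripped skin Actn3 was at 7.53, 3.22 and 12.9 CPM, Casq1 at 0, 0.293 and 3.81 CPM, and Ryr1 at 107, 60.4 and 78.0 CPM. Hspb1, Hspb8 and Bag3 had means of 871, 152 and 25.5 CPM there. Their ratios may therefore hold counts from cells other than muscle, which was not tested. With the summed reference, 7 genes had higher ratios in stripped control than in unstripped skin, Hspb1 and Hspb8 had lower ones, and Bag3 overlapped. Hspb1 went from 9.66 ± 1.97 counts per reference count in unstripped to 3.16 ± 0.994 in stripped control skin (SD, n = 3). Ryr1 alone put Hspb8 and Bag3 on the higher side by their means, and Casq1 alone put Flnc and Ankrd1 on the lower side, so for these 4 genes the direction of this ratio turns with the reference.

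The lists that follow were written from general knowledge of the pathway, with earlier results of these data known, and give the setting of the 10 genes. A listed gene is said to have risen or fallen only where it was called higher or lower. Of 6 other small heat-shock protein genes 4 could be tested, and 3 rose after stripping: Hspb6 (7.57 ± 0.69, SE), Hspb3 (7.06 ± 1.85) and Hspb2 (5.57 ± 1.43), all of them known from muscle. None was called with NGO, where the median was -1.80 and 1 had an unadjusted p under 0.05 (Hspb6, -1.61 ± 0.52, edgeR adjusted p = 0.0917). Hspb2 was at -2.13, with an adjusted p of 0.328.

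Of 9 partners of BAG3 in chaperone-assisted autophagy, 2 rose after stripping: Hspa8 (2.04 ± 0.34, SE), the constitutive HSP70, and Sqstm1 (2.08 ± 0.55), the autophagy receptor p62. With NGO 1 of the 9 fell, the inducible HSP70 gene Hspa1a (-2.54 ± 0.67, edgeR adjusted p = 0.0453), while its near-identical copy Hspa1b was at -1.58 (adjusted p = 0.0536) and Hspa8 at -0.99 (adjusted p = 0.106). Reads of Hspa1a and Hspa1b can be split between the copies by the counting, so either value alone is uncertain. Of 20 heat-shock response genes, which include these HSP70 genes, 3 rose after stripping (Hspa8, Dnajb4 at 2.65 and Hsph1 at 1.43) with a median of -0.01. With NGO 1 fell (Hspa1a), the median was 0.33, and Dnajb4, an HSP40 co-chaperone, was at -1.80 (adjusted p = 0.0546). The ratio to the muscle reference was higher in all NGO-treated than in all stripped control libraries in 33.3% of the 12411 genes. It was so in 0 of 4 other small heat-shock protein genes, in 2 of 9 autophagy partners (Stub1 and Synpo2) and in 8 of 20 heat-shock response genes, and it was apart and lower in no gene of these lists. In the fit relative to muscle 3 of the 20 were called higher, Hsp90ab1, Hspa4 and Fkbp4.

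Of 23 Z-disc and titin-linked genes, 22 rose after stripping, with a median of 6.16, among them Trim63 (9.60), the ubiquitin ligase MuRF1, Fhl1 (6.27), a LIM protein that binds titin, and Myoz1 (4.90), which binds alpha-actinin and calcineurin. With NGO the median was -1.62 and 1 of the 23 fell, the PDZ-LIM gene Pdlim5 (-1.18 ± 0.32, edgeR adjusted p = 0.0488). Nrap (-2.43, adjusted p = 0.0766) and Fhl1 (-1.78, adjusted p = 0.0835) came next. The ratio to the muscle reference was apart and lower in 5 of the 23: Tcap, Fhl1, Nrap, Xirp2 and Trim63. All 11 fast fibre genes rose after stripping, with a median of 6.78, among them Tnni2 (7.61), Myh4 (6.78) and Atp2a1 (6.40). None of the 11 was called with NGO by edgeR, and 4 had an unadjusted p under 0.05. Their differences ran from -1.84 to -0.96, so each was smaller in size than that of any of the 10 chaperone and stretch-response genes. Their ratio was apart and lower in 1 of the 11 (Tnni2). Of 9 slow fibre genes 4 could be tested, and Myh7, Myl2, Myl3, Tnnt1 and Tnnc1 were too low for it. None was called after stripping, and with NGO 1 rose, the calcium pump gene Atp2a2 (1.37, edgeR adjusted p = 0.0345). Means of Atp2a2 were 244 CPM in unstripped, 161 CPM in stripped control and 417 CPM in NGO-treated skin. It was thus lowest in the group where the skeletal muscle markers were highest.

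Ankrd1 is counted among the textbook targets of YAP and TEAD, and 13 other targets and partners were listed. Of the 12 that could be tested, 1 rose after stripping (Nuak2, 1.96) and 2 fell (Yap1, -1.75, and Ajuba, -3.40). With NGO 3 rose: Yap1 (1.45 ± 0.32, SE, edgeR adjusted p = 0.0226), the receptor kinase gene Axl (1.76, adjusted p = 0.0403) and the LIM protein gene Ajuba (3.42, adjusted p = 0.0429). The median was -0.08 and none was called lower. By sign, 6 of the 12 differences were below 0. In 3 genes, among them Lats2, all NGO-treated libraries lay below all stripped control libraries, as in 8.92% of all genes. The ratio to muscle was apart and higher in 4 of the 12 (Amotl2, Axl, Ajuba and Yap1) and lower in none, and Yap1, Axl and Ajuba were called higher in the fit relative to muscle.

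**Figure D4:**
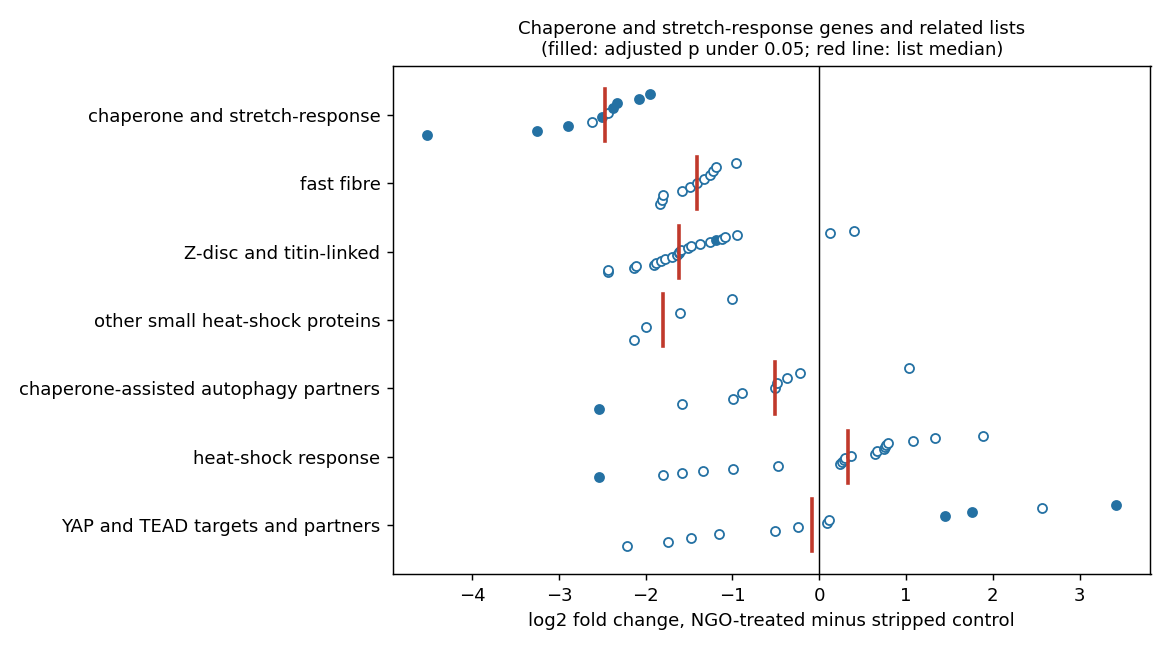
Log2 fold change between NGO-treated and stripped control skin for each gene of the chaperone and stretch-response set and of 6 related lists, with a red line at each median and filled points at an adjusted p under 0.05. The set has its median at -2.47, the fast fibre list at -1.41 and the heat-shock response list at 0.33.

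The 10 genes differed in how closely they followed their common course. The root mean square difference over the 9 libraries between a gene and the mean of the 10, each centred log2 CPM, was smallest for Flnc (0.766) and largest for Hspb1 (2.29), which was already high in unstripped skin. Outside the set, the genes nearest that mean were Klhl40 (0.388), Ppp1r27 (0.463), Lmod2 (0.479), Klhl41 (0.526) and Abra (0.528). Klhl40 and Klhl41 encode kelch proteins of the sarcomere, Lmod2 a leiomodin that lengthens thin filaments, and Abra an actin-binding protein of striated muscle. Klhl40 was at 29.3 ± 4.71 CPM before stripping, 3858 ± 1506 after it and 862 ± 608 with NGO (SD, n = 3), and Lmod2 was at 0 in unstripped skin. For single genes, Bag3 had the closest neighbour, the lipoprotein lipase gene Lpl (0.240). Hspb7 was nearest to Trim63 (0.380) and Hspb8 to Pkia (0.406). Trim63 was also nearest to Cryab (0.585) and Ankrd2 (0.785). Csrp3 was nearest to Xirp2 (0.536), Flnc to Mustn1 (0.671) and Xirp1 to Ckmt2 (0.970). Ankrd1 had the most distant neighbour of the 10, Abra at 1.15.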

How the data were processed

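For each of the 9 libraries the authors deposited whole-number counts by gene symbol. Per the labels' protocols, RNA was isolated with Trizol and made into Lexogen QuantSeq 3′-tag libraries. The submitters' processing notes name Bowtie2, bedtools and mm10, and give neither versions nor roles. Counting rules for multi-mapping, overlapping or antisense reads are not given in the sources used here. No entry lacked a name, and 44 repeats of a symbol among the 23282 entries were kept apart.

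Counts were analysed in R 4.3.3 with the edgeR 4.0.16 quasi-likelihood test (robust, TMM factors, filterByExpr), with 1 fit of all 9 libraries by group, whose spread was estimated jointly. Adjustment followed Benjamini and Hochberg over 13740 genes, with calls at an adjusted p under 0.05. The fit relative to muscle replaced library sizes by the summed counts of Actn3, Casq1 and Ryr1 in the 6 stripped libraries (12411 genes). Log2 ratios used a pseudocount of 0.5 and were not tested. The procedure was tested on simulated data.

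Alternatives were limma-voom (limma 3.58.1), DESeq2 1.42.0, other scalings, filters and references, the replicate number as a block, and leaving out each library. The 10 genes and all lists were chosen with earlier results of these data known. Named besides them are the 3 reference genes, up to 3 genes per list with the smallest p in each of the 2 main comparisons, the 5 genes nearest the mean course of the 10 (root mean square difference of centred log2 CPM, prior count 2, average log2 CPM at least 3, predicted and clone symbols left out) and the nearest gene to each of the 10, of which that to Hspb1 is not reported here. Promoters came from RefSeq (GRCm38.p6) and positions from GENCODE M21.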

Additional observations from a re-analysis of the deposited data

How the results depend on the processing

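With NGO against stripped control skin, the number of the 10 genes called lower (8) was 4 with no filter on low counts (Hspb1, Bag3, Flnc and Ankrd1) and ran from 2 to 9 with a library left out. It was 10 with limma-voom, 7 with DESeq2, 7 with library sizes without muscle genes and 6 in a fit of the 2 compared groups. Over all genes this comparison called 694 (532 higher, 162 lower), against 1936 with DESeq2, 420 with limma-voom, 118 in the fit of 2 groups and 206 to 929 with a library left out. Called lower were 275 with no filter, 795 with DESeq2, 231 with limma-voom, 35 in the fit of 2 groups and 29 to 264 with a library left out. With RLE size factors it called 428 higher and 215 lower, and the median of all genes moved from 0.07 to -0.05. For NGO-treated against unstripped skin the number called (8) was 4 with no filter and 7 to 8 with a library left out (over all genes 345, against 1284 with limma-voom, 805 with DESeq2, 602 in the fit of 2 groups and 214 to 495 with a library left out), and for stripped control against unstripped skin it was 10 to 10. Over all genes the latter called 1870, against 3125 with DESeq2 and 1159 to 2124 with a library left out. Relative to muscle, the number called (1) was 5 with Actn3 alone, 4 with Actn3 and Casq1 (chosen after seeing the data), 2 with at least 20 counts in 3 libraries, and 1 to 4 with a library left out. The number over all genes was not counted in these alternatives of the fit relative to muscle. The median log2 ratio of NGO-treated to stripped control skin (-1.27) was -0.91 against the skeletal muscle markers and -1.47 to -1.17 with a library left out. That of stripped control to unstripped skin (5.06) was 3.07 with the geometric mean of the references, 2.05 with the skeletal muscle markers, 2.72 with Actn3, 0.14 with Casq1, 6.33 with Ryr1, 2.22 with Actn3 and Casq1, and 4.87 to 5.58 with a library left out. Over all genes tested, deviations of same-numbered replicates from their group means had correlations of -0.06 to 0.09. With 3 libraries per group such values cannot settle whether the numbers pair the samples. With the replicate block 10, 8 and 8 genes were called in the 3 comparisons, and 6 relative to muscle. The cause of these shifts was not tested. No fitted difference of the 10 genes, and no median over them, turned its direction, while ratios of 4 single genes to unstripped skin did, as given above. Depth limits Hspb7, Ankrd2 and Xirp1 in unstripped skin, at 6 to 12 counts over 3 libraries.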
